A study of Hordeum vulgare with 12 samples.

Results

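PPD-H1, ELF3, CEN and FT2 are 4 barley genes that act on flowering time and on the pace of spike development. They were taken by identifier from the deposited table of 29014 genes, where all 4 were listed. PPD-H1 (HORVU2Hr1G013400) and CEN (HORVU2Hr1G072750) lie on chromosome 2H, ELF3 (HORVU1Hr1G094980) on 1H and FT2 (HORVU3Hr1G027590) on 3H. RNA-seq was made from inflorescences of Golden Promise, a spring cultivar of barley (Hordeum vulgare) that is a common host for transformation. The 4 groups were wild type (WT) and mutant, each sampled at both W2.0 and W3.5, with 3 libraries a group and a pool of 15 to 20 spikes behind each library. All plants shared the Golden Promise background and normal growth conditions. The labels give the genotype only as mutant and the series names the gene FEA (FASCIATED EAR), with the number and kind of mutant lines not given in the sources used here. The design text has W3.0 in place of W3.5, and the sample labels were followed.

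Flowering in barley is timed by day length and by the circadian clock. PPD-H1, a pseudo-response regulator of the clock family, promotes flowering in long days and acts mainly by raising the florigen gene FT1 in leaves. ELF3 is a component of the evening complex of the clock, and barley lines without it flower early in any day length. CEN and FT2 belong to the same family of small phosphatidylethanolamine-binding proteins but have opposite roles. CEN is the barley relative of Antirrhinum CENTRORADIALIS and Arabidopsis TFL1, which keep meristems from flowering, while FT2 is related to the florigen FT and is known for expression in the developing inflorescence. On the Waddington scale of spike development, which stage names of this form usually follow, W2.0 is the double-ridge stage and W3.5 the stage of stamen primordia.

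The deposited values were 1 mean per group in FPKM, a read count divided by gene length and by depth, so that levels can be compared between genes. With only these means, no SD or test can be given for the 4 genes, and in whole inflorescences fewer cells of a type and less RNA per cell cannot be told apart. Depth behind the values lay between 63298092 and 75896357 reads per library. Reads of the 3 libraries together came to 171 per kilobase of gene at the lowest of the 16 values (FT2, W2.0 mutant) and to 7406 at the highest (ELF3, W2.0 WT). For a gene of 1 kilobase, counting error alone is then 7.64% of the lowest value and 1.16% of the highest. These are errors of the 3 libraries together, and the counting error of a single library is larger. Spread between single libraries, which includes counting error, was measured in 7114 other genes whose single-library reads could be recovered from the means. Among those with at least 100 reads in every library of a group, the median coefficient of variation was 16.4% in both WT groups, 21.9% in the W2.0 mutant and 17.7% in the W3.5 mutant. At the level of 8 to 16 FPKM, where PPD-H1 and, in part, CEN lie, these medians were 12.8% to 17.5%, over 230 to 338 genes a group. Reads were recovered for only 508 of the 3632 genes whose highest mean lay at this level, against 1506 of 1572 at 0.5 to 1 FPKM. The medians thus describe a minority of genes at this level, and whether the remaining genes have the same spread was not tested. The libraries of a group were not always nearest to each other. Over 5479 recovered genes, the deepest W2.0 mutant library correlated with the W3.5 mutant libraries at a mean of 0.813 and with the others of its own group at 0.751. The deepest W2.0 WT library likewise had 0.83 with the W3.5 WT libraries and 0.805 with its own group. Their part in the means of the 4 genes was not tested, since their single libraries are not known.

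Of the 4 genes, CEN and FT2 varied most between the groups, with highest means 3.09 and 4.59 times their lowest. Ranges as large or larger were found in 8.97% (CEN) and 5.82% (FT2) of the 19367 genes at 1 FPKM or more in a group. ELF3 spanned 1.4-fold, a range that 46.4% of these genes reached or passed, and PPD-H1 spanned 1.23-fold, which 71.7% reached or passed. CEN had its highest mean in the W2.0 mutant and FT2 its lowest, as 22.7% and 21.3% of these genes did. CEN was lowest in W2.0 WT (31.5% of genes), where ELF3 was highest (25.0%). In W2.0 WT the order of levels was ELF3 at 34.53 FPKM, PPD-H1 at 10.68, CEN at 10.46 and FT2 at 2.152 FPKM. The means of PPD-H1 and CEN were nearly equal there, and whether their order holds was not tested. In the W2.0 mutant CEN led with 32.35 FPKM, followed by ELF3 at 26.34, PPD-H1 at 12.14 and FT2 at 0.79 FPKM. CEN stood 1.23 times as high as ELF3 in that group, and no spread was measured at the level of either. Both genotypes had the order ELF3, CEN, PPD-H1, FT2 at W3.5. The WT levels were 24.7, 16.47, 10.06 and 1.411 FPKM, and the mutant levels 25.58, 17.75, 12.33 and 3.626 FPKM. Among the 19367 genes, ELF3 lay between the 72.0 and 79.5 percentiles and PPD-H1 between the 48.2 and 54.5 percentiles. CEN ranged from the 49.9 to the 78.4 percentile and FT2 from the 2.88 to the 25.7 percentile.

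**Figure D1:**
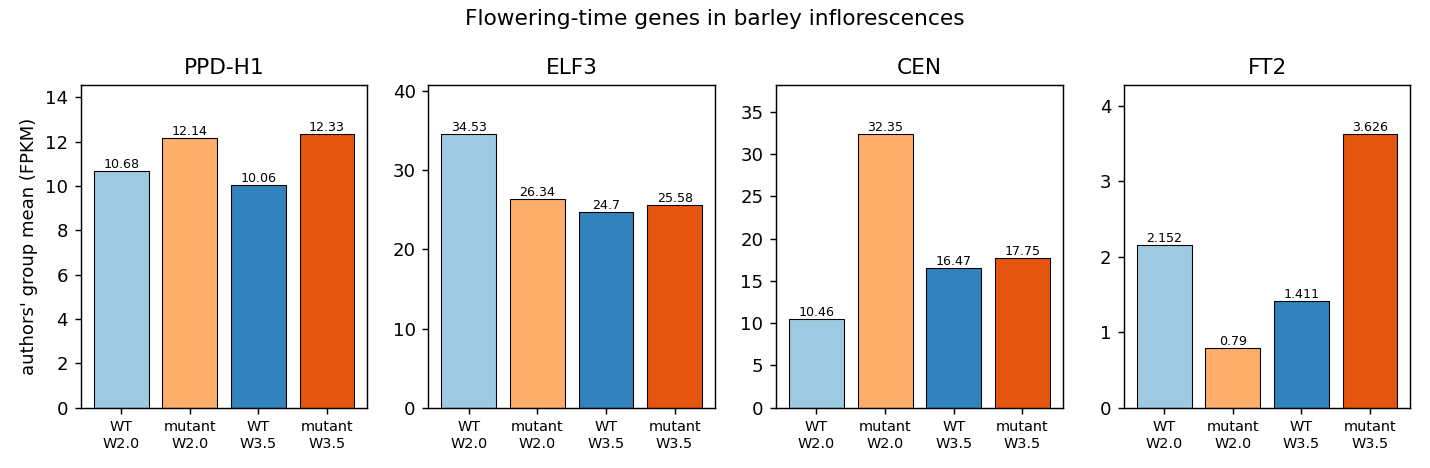
Authors' group means of the 4 genes, in FPKM on axes that start at 0 and differ between panels; each bar is 1 mean of 3 libraries, with no error bar because single-library values are not known. CEN peaks at 32.35 FPKM in the W2.0 mutant, where FT2 is lowest at 0.79 FPKM, while PPD-H1 stays between 10.06 and 12.33 FPKM.

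The first comparison sets the mutant against WT at W2.0. CEN stood 3.09 times as high in the mutant as in WT, at 32.35 against 10.46 FPKM. FT2 stood at 0.367 times its WT level, at 0.79 against 2.152 FPKM. Of this family, the TFL1 relative thus had the higher mutant mean and the FT relative the lower one. Counting a 2-fold difference of the means, 1 of the 4 genes was higher in the mutant and 1 lower, where 4.95% of the 19367 genes were higher by that much and 3.05% lower. A ratio as high as that of CEN was found in 2.14% of these genes. It was found in 0.267% of the 10126 genes at 8 FPKM or more in every group, where low counts play a smaller part. A ratio as low as that of FT2 was found in 1.96% of the 19367 genes. FT2 lies below 8 FPKM, where 2-fold differences were more frequent. Of the genes at 8 FPKM or more in every group, 0.721% were lower in the mutant by 2-fold. Shares over the 19367 genes, here and below, thus understate how often genes of lower level differed, and none was computed for the level of FT2. ELF3 was 0.763 times as high in the mutant, at 26.34 against 34.53 FPKM, and 11.2% of genes were as low or lower, or 6.68% of those at 8 FPKM or more. PPD-H1 was 1.14 times as high, at 12.14 against 10.68 FPKM, a ratio reached or passed by 30.5% of genes, or 21.5% of those at 8 FPKM or more.

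At W3.5 the genotypes differed in another way. CEN was nearly alike in both, at 17.75 FPKM (mutant) and 16.47 FPKM (WT), a ratio of 1.08. FT2 was 2.57 times as high in the mutant, at 3.626 against 1.411 FPKM, the opposite direction to W2.0. It was the 1 gene of the 4 that differed by 2-fold, where 4.44% of the 19367 genes were higher in the mutant by that much and 2.43% lower. A ratio as high as that of FT2 was found in 3.27% of genes. At 8 FPKM or more in every group, 0.514% of genes were higher in the mutant by 2-fold, so among the remaining genes the share exceeds 4.44%. ELF3 had a ratio of 1.04. PPD-H1 had 1.23, with means of 12.33 (mutant) and 10.06 FPKM (WT), which 14.7% of genes reached or passed, or 7.44% of those at 8 FPKM or more. The mutant means of PPD-H1 thus lay 13.7% above WT at W2.0 and 22.6% above it at W3.5. In the recovered genes at its level, the median spread between single libraries was 12.8% to 17.5%. That is not the spread of a difference between means of 3 libraries, so these differences cannot be judged by it.

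In WT, the stage comparison asks how the genes stood at W3.5 against W2.0. None of the 4 genes differed by 2-fold, where 3.54% of the 19367 genes were higher at W3.5 by that much and 5.98% lower. CEN was 1.57 times as high at W3.5, a ratio reached by 9.18% of genes, or 3.4% of those at 8 FPKM or more. FT2 was 0.656 times as high at W3.5, with 9.38% of genes as low or lower, and ELF3 0.715 times, with 11.6%, or 6.45% of those at 8 FPKM or more. PPD-H1 had a ratio of 0.942.

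For the mutant, the same comparison gave CEN and FT2 in the reverse directions to WT. FT2 stood at 0.79 FPKM at W2.0 and 3.626 FPKM at W3.5, a ratio of 4.59, the largest of the 4 genes in these 4 comparisons. A ratio as high was found in 0.496% of the 19367 genes, while 1.76% were at least 2-fold higher at W3.5 and 4.98% lower. At 8 FPKM or more in every group, 0.356% of genes were higher by 2-fold, so among the remaining genes the share exceeds 1.76%. CEN went from 32.35 to 17.75 FPKM, a ratio of 0.549, with 6.24% of genes as low or lower, or 1.57% of those at 8 FPKM or more. ELF3 and PPD-H1 had ratios of 0.971 and 1.015, so that both means of each gene were nearly equal.

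**Figure D2:**
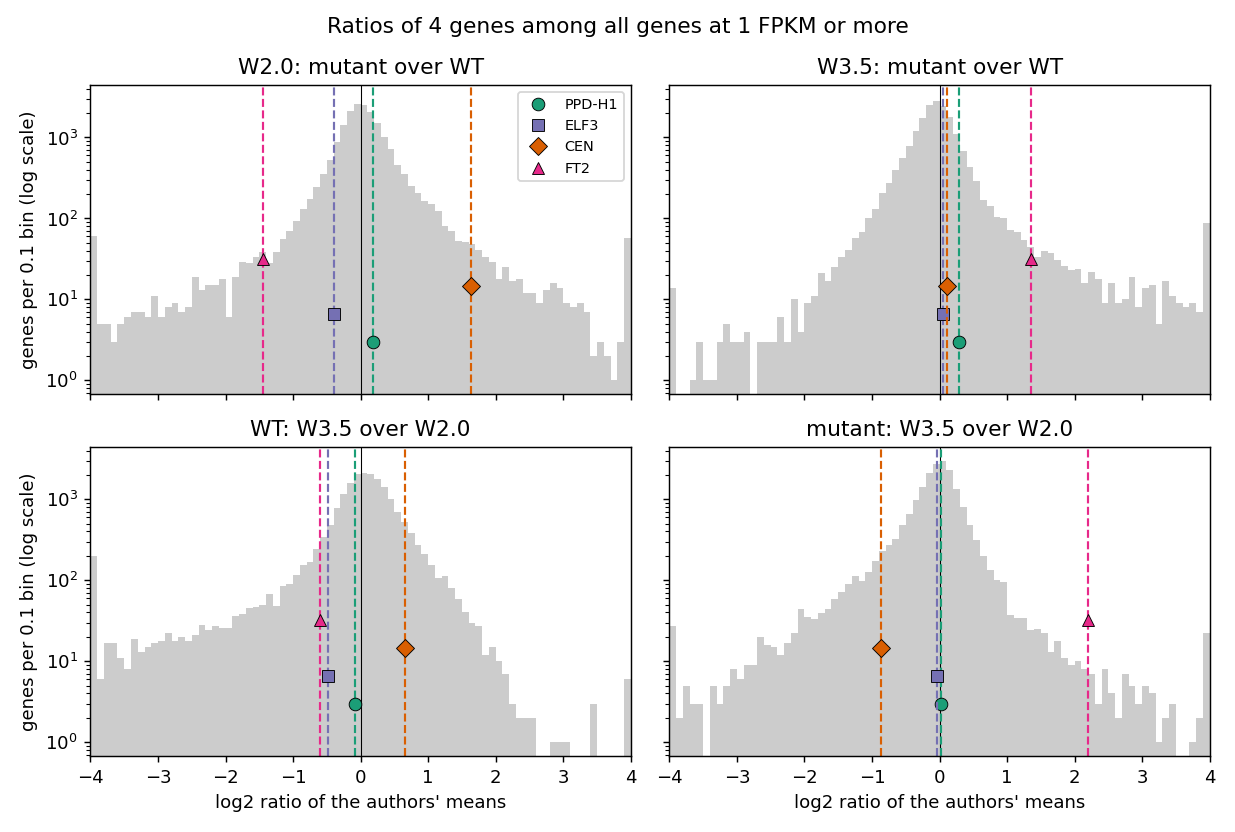
Log2 ratio of the authors' means in the 4 comparisons; grey bars count the genes at 1 FPKM or more in a group per 0.1 bin on a log axis, with ratios beyond the axis gathered in the end bins, and the coloured markers, at arbitrary heights, show the 4 genes. For the mutant against WT, FT2 lies on the low side at W2.0 (-1.45) and on the high side at W3.5 (1.36), while PPD-H1 stays within the bulk of genes in every panel.

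Whether the genotype ratio changed between the stages was described by dividing the W3.5 ratio by the W2.0 ratio. For FT2 this gave 7.0, and 1.31% of the 19232 genes with no mean at 0 had a value as high. For CEN the genotype ratio at W2.0 was 2.87 times that at W3.5, with 2.56% of genes as far in that direction, and 0.484% of the 10126 genes at 8 FPKM or more. ELF3 had a value of 1.36, since W2.0 WT stood above the other 3 groups, and PPD-H1 had 1.08. FT2 was 1 of 192 genes (0.991%) that were lower in the mutant by 2-fold or more at W2.0 and higher by as much at W3.5. CEN was 1 of 298 genes (1.54%) that stood at least 1.5-fold higher at W3.5 in WT and at least 1.5-fold lower in the mutant. FT2 was 1 of 141 genes (0.728%) with the reverse of that pattern. The level of CEN over that of FT2 was 4.86-fold in W2.0 WT, 40.9-fold in the W2.0 mutant, 11.7-fold in W3.5 WT and 4.89-fold in the W3.5 mutant.

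How often a ratio of a given size came with separate libraries was read from the genes with recovered reads, counting those with a mean of at least 100 reads per library in both groups. For mutant against WT at W2.0, 27 such genes had a ratio of 3 or more in either direction, the class of CEN. In 14 of them (51.9%) the 3 libraries of one group did not overlap the 3 of the other. In the class of 2 to 3, which holds FT2, there was no overlap in 56 of 106 genes (52.8%) at W2.0 and in 59 of 73 (80.8%) at W3.5. Between the stages of the mutant 6 genes had a ratio of 3 or more, the class of FT2 there, and 2 of them did not overlap. For CEN between the stages, the class of 1.5 to 2 gave 64.2% in WT and 33.7% in the mutant. Ratios under 1.3, the class of PPD-H1 in all 4 comparisons, came with separate libraries in 3.44% to 7.62% of genes. For ELF3, the class of 1.3 to 1.5 gave 22.9% for the genotypes at W2.0 and 40.6% for the stages in WT. Over all classes the shares were 12.1% for the genotypes at W2.0, 17.1% at W3.5, 24.5% for the stages in WT and 9.65% in the mutant. Where groups of 3 libraries do not differ and are alike in spread, separate libraries in either direction are expected in 0.1 of genes. The 12.1% and 9.65% lie near that. However, spread differed between the groups and all genes came from the same libraries, so the shares do not show whether groups differed. The recovered genes were mostly of lower level than CEN, ELF3 and PPD-H1, and the shares give no test of the 4 genes.

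**Figure D3:**
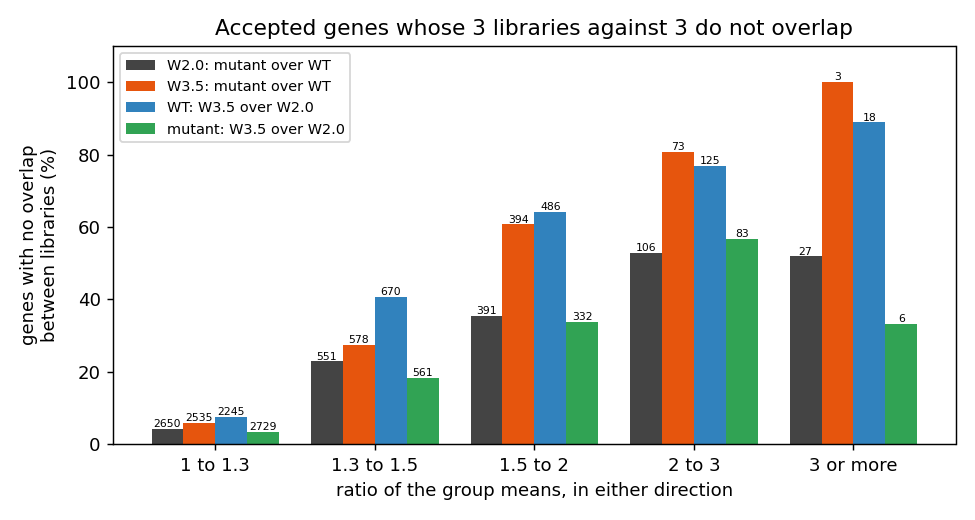
Share of genes with recovered reads whose 3 libraries in one group do not overlap the 3 in the other, by the size of the ratio of the group means in either direction; numbers over the bars are genes in the class. Separate libraries came with 51.9% of ratios of 3 or more for the genotypes at W2.0 and with 4.34% of ratios under 1.3.

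For FT2, the lowest of the 4 genes, a most probable set of single-library reads was found, but it missed the probability of 0.99 set for accepting reads. It has a gene length of 1780 bases and a probability of 0.962 for both WT groups and the W2.0 mutant. The reads of the W3.5 mutant were less certain, with a probability of 0.868. The set rests on the lengths usual among other genes: with all lengths taken as equally likely, its probability was 0.125. The form of the search's assumptions on length and spread was also settled after its outcome for FT2 had been seen, so the library values are conditional and support no comparison. If it is right, the W2.0 libraries of WT stood at 1.82, 3.81 and 0.826 FPKM, and those of the mutant at 1.22, 0.151 and 0.997 FPKM. The W3.5 libraries would stand at 1.84, 1.69 and 0.7 FPKM in WT, while those of the mutant would stand at 2.15, 4.64 and 4.09 FPKM. The coefficient of variation would be 70.7% (W2.0 WT), 71.4% (W2.0 mutant), 43.9% (W3.5 WT) and 36.1% (W3.5 mutant). Of recovered genes at 0.5 to 4 FPKM with at least 100 reads in every library, 0.44%, 0.68%, 3.58% and 10.3% had a larger one. FT2 itself would not meet this floor in W2.0 WT, the W2.0 mutant or W3.5 WT, where its lowest libraries would hold 97, 20 and 83 reads. In those groups the shares thus do not rank FT2 among genes of like read number. The other 3 genes had no set near certainty, as their most probable lengths had probabilities of 0.117 (PPD-H1), 0.0549 (ELF3) and 0.0375 (CEN).

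The genes most like ELF3, CEN and FT2 were sought by the distance between their 4 group means on the log2(FPKM + 1) scale, each centred on its own mean. PPD-H1 was left out, because its means spanned 0.27 on this scale, under the 0.3 set for the search. Within a root mean square distance of 0.1 of ELF3 lay 825 of 19366 genes. Distances were not scaled by the span of a gene on this scale, which was 0.467 for ELF3, 1.54 for CEN and 1.37 for FT2. A gene of small span can lie near many genes that vary little, so such counts do not say how common a pattern is. HORVU2Hr1G113190, at a distance of 0.016, had 13.34 and 10.31 FPKM in WT and mutant at W2.0 and 9.574 and 9.741 FPKM at W3.5. HORVU0Hr1G039660 and HORVU2Hr1G010090 were about as near, at 0.015 and 0.019. For CEN, 3 genes lay within 0.1. HORVU6Hr1G022680, at 0.082, had 4.524 FPKM in W2.0 WT and 16 FPKM in the W2.0 mutant, then 8.524 and 7.816 FPKM at W3.5. HORVU3Hr1G052510 at 0.091 and HORVU4Hr1G057910 at 0.098 followed, the latter at 51.01 and 170.8 FPKM in WT and mutant at W2.0. No gene came within 0.1 of FT2. The nearest, HORVU4Hr1G080590 at 0.11, had 3.308 and 1.377 FPKM in WT and mutant at W2.0 and 2.806 and 4.981 FPKM at W3.5. HORVU3Hr1G028790 and HORVU2Hr1G060300 lay at 0.16. Likeness was measured over 4 means only.

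**Figure D4:**
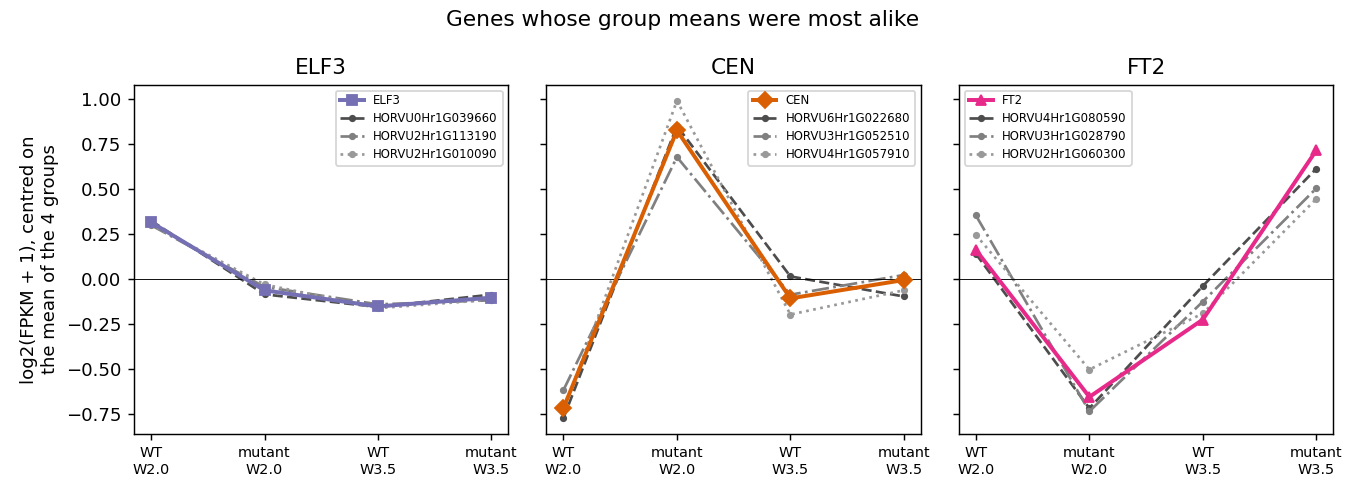
Group means on the log2(FPKM + 1) scale, centred on the mean of the 4 groups, for ELF3, CEN and FT2 (coloured) and the 3 genes nearest to each (grey). The nearest genes lie within 0.019 of ELF3, 0.098 of CEN and 0.16 of FT2 as root mean square distance.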

How the data were processed

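Total RNA of 12 inflorescence samples was sequenced after TruSeq library preparation, per the labels' protocols. FastQC, HISAT2 2.0.0 and HTSeq 0.11.2 are named in the submitters' processing notes, with genome build, annotation, strand setting and time of sampling not given in the sources used here. The deposited values are FPKM, averaged by the authors over the 3 libraries of a group; the unit was read from the values, as no header states it. None of the 29014 identifiers was in the RefSeq gene table, so other flowering genes and tissue markers could not be named and are not described.

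The main values are the authors' means and their ratios, without a pseudocount. Library depths were derived from ratios of low means, which must be sums of whole reads. Every pair of columns gave the 9 ratios that 3 by 3 libraries imply, and the 12 depths came within 0.029 of whole numbers. Whole reads and a whole length between 100 and 12000 bases were then searched for each of 12471 genes whose highest mean lay between 0.5 and 16 FPKM, and for the 4 members at any level. Priors for length and dispersion came from genes of 0.5 to 2 FPKM. These empirical priors replaced flat ones after the outcome of the search for FT2 had been seen. Reads were accepted above a probability of 0.99, which 7114 genes reached. The search was tested on simulated data. The labels call the libraries biological replicates; which recovered library is which replicate is unknown, and values are given by falling depth. Python 3.11.15, numpy 2.4.6 and numba 0.67.0 were used.

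No member reached acceptance, so the limma test planned for single-library values was not applied. The members and lists were chosen with earlier results of these data known. Named genes are the 4 members, the 3 genes most alike for each member whose means spanned at least 0.3 on the log2(FPKM + 1) scale, and the nearest listed identifier on each side of a member.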

Additional observations from a re-analysis of the deposited data

How the results depend on the processing

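The 16 levels and 20 ratios of the 4 genes kept their direction when the 4 columns were scaled by median ratios, moving by at most 6.5%, and the 20 ratios did so with 0.1 FPKM added to each mean, moving by at most 11%. The median of the 19249 genes at 1 FPKM or more in a group and with neither mean at 0 was 0.068 higher at W3.5 than at W2.0 in WT on the log2 scale. Counts of genes at least 2-fold apart were 1550 and 1330 for the genotypes at W2.0 and W3.5 and 1844 and 1304 for the stages in WT and mutant. Without the filter at 1 FPKM they were 6446, 6119, 6673 and 6140, as genes near 0 enter. The probability of the FT2 length, 0.962, was 0.125 with a flat prior on length and 0.923 with a flat prior on dispersion, both chosen after seeing the data. With a stricter probability for accepting reads, the median spread between libraries over genes of 0.5 to 16 FPKM moved by under 1 percentage point, and at 8 to 16 FPKM in W2.0 WT it went from 13.7% to 12.5%. The limma alternatives, RLE scaling of libraries, fits of single comparisons and leaving out libraries were not run, because no member had accepted reads. No paired analysis was possible because the columns are group means and carry no replicate numbers. For PPD-H1, ELF3 and CEN, counting error at an assumed length of 1 kilobase was at most 2.2% of a mean. The spread of their libraries is unknown, and whether depth limits their values was not tested.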

Other observations

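The nearest listed identifiers on each side of the 4 genes gave these values. Both neighbours of CEN, HORVU2Hr1G072730 and HORVU2Hr1G072780, were at 0.04479 FPKM or less in every group. Both neighbours of PPD-H1, HORVU2Hr1G013390 and HORVU2Hr1G013420, were at 0.05427 FPKM or less. On one side of FT2, HORVU3Hr1G027580 stood at 9.616 to 10.01 FPKM in all groups. On the other, HORVU3Hr1G027610 stood at 10.24 FPKM in W2.0 WT, 8.924 in the W2.0 mutant, 7.31 in W3.5 WT and 11.12 FPKM in the W3.5 mutant, with its highest mean in the same group as FT2 and its lowest in another. The neighbours of ELF3, HORVU1Hr1G094920 and HORVU1Hr1G094990, had mutant over WT ratios of 0.976 and 0.949 at W2.0, against 0.763 for ELF3.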
